A study of Mus musculus with 6 samples.

Results

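The tricarboxylic acid cycle oxidizes acetyl-CoA in the mitochondrial matrix, and its enzymes were examined here at the level of their transcripts in atria of lean and obese mice. The 9 genes described, Cs, Idh2, Idh3a, Idh3b, Idh3g, Ogdh, Suclg1, Fh1 and Mdh2, were taken by name from the 43432 genes of the deposited table, which holds 1 row for each of them. Mice on the high-fat diet are called obese or HFD mice, and mice on control chow lean or control mice. Wild-type C57/Bl6J mice were fed either a high-fat diet (HFD) or control chow for 10 weeks from the age of 6 weeks, and RNA of the right and left atria of 3 mice per diet was sequenced. Titles of the samples, and the headers of the table, give the diet used here, and the treatment entry of the labels gives the other diet for all 6 samples. The direction of every difference therefore rests on the titles. All 6 mice were wild type and differed by diet alone as labelled, and the labels do not say whether mice shared a cage or litter.

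The cycle begins when citrate synthase joins acetyl-CoA to oxaloacetate, and each turn releases carbon dioxide and passes electrons, mainly as NADH, to the respiratory chain. In the heart, which oxidizes fatty acids and glucose continuously, the acetyl-CoA from both fuels meets at this cycle. Isocitrate dehydrogenase and the 2-oxoglutarate dehydrogenase complex are known as its regulated steps.

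In obese atria none of the 9 transcripts passed the test over all genes, although every one of them had a lower mean than in lean atria. The difference was largest for Idh2, with -22.2% between the means, followed by Fh1 with -14.5%, and lay between -2.44% and -10.3% for the other 7. Idh2 and Fh1 were the genes for which every HFD mouse was below every control mouse. The size of these differences varied with single mice, since HFD mouse 3 was within or above the range of the control mice for 7 of the 9 genes.

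The values are normalized counts, the reads of a gene divided by 1 size factor per library. Reads on genes ranged from 15874251 to 28971508 per library, and the mitochondrially encoded genes took 19.5% to 24.4% of them in 5 libraries and 30.7% in control mouse 2. The same mouse had 8176 normalized counts of the ventricular myosin light chain Myl2, against 2289.9 to 3469.95 in the other 5. The atrial markers Nppa and Myl7 were abundant in all libraries, with at least 171702 and 27168 normalized counts. Each of the 9 enzymes had between 3072 and 36436 reads in every library, and the errors given are the spread between mice. The diets were tested against each other by limma, on log2(normalized count + 1), over 15275 genes, and 114 of them (0.746%) passed at an adjusted p of 0.05 (Benjamini-Hochberg), 0.262% with a lower level on HFD.

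Levels can be compared between genes only per length of transcript. In lean atria Mdh2, the malate dehydrogenase that closes the cycle, was the most abundant, with 11557.5 ± 1336.5 normalized counts per kb of transcript (SD, n = 3 mice). Idh2 came next with 7118 ± 782 per kb, then Ogdh with 5869.7 ± 153 and Cs with 5744 ± 352. The subunits of the NAD-dependent isocitrate dehydrogenase followed, Idh3g with 5198 ± 269.6, Idh3b with 4215 ± 439.9 and Idh3a with 3397 ± 42.5 per kb. Suclg1 had 2414 ± 129 and Fh1, the lowest, 1979 ± 67.8 per kb. Among neighbours in this order, the ranges of the 3 control mice overlapped only between Ogdh and Cs. In obese atria Ogdh, with 5628 ± 798 per kb, stood above Idh2, with 5539.7 ± 253, and the ranges of the 3 mice overlapped between all neighbours from Ogdh through Idh2, Cs, Idh3g and Idh3b to Idh3a. Apart from this exchange the order of the means was that of the lean atria.

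**Figure D1:**
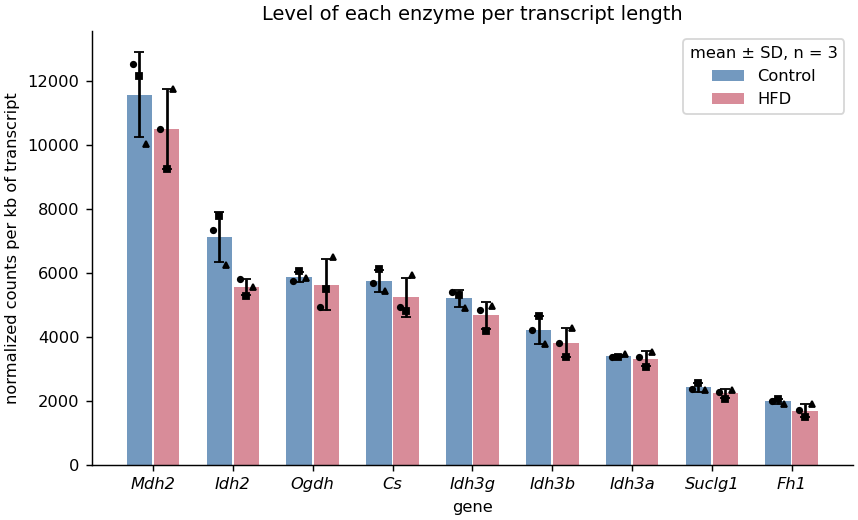
Bars give the mean of the normalized counts per kb of the longest protein-coding transcript in 3 control (blue) and 3 HFD (red) mice, with the SD as error bar and 1 black symbol per mouse. Mdh2 stands highest at 11557.5 per kb in control mice and Fh1 lowest at 1979.

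The step from isocitrate to 2-oxoglutarate is carried out by enzymes of different kinds. Idh2 encodes the NADP-dependent enzyme of the matrix, which supplies NADPH for antioxidant defence and can also run in reverse. Its gene lies on the minus strand of chromosome 7 of GRCm38 from 80094846 to 80115392, with 11 exons in its longest coding transcript. HFD mice 1 to 3 had 10098, 9216 and 9686 normalized counts of Idh2, and control mice 1 to 3 had 12806, 13551 and 10906. The obese values lay close together and below all lean values, the nearest of which was that of control mouse 3. On average it had 9667 ± 441 and 12421 ± 1364 (SD, n = 3 each), which is a log2 fold change of -0.36 with a standard error of 0.12 and a 95% interval from -0.63 to -0.09. In limma its p was 0.0148 before and 0.255 after adjustment over all genes, and a two-sided exact permutation test gave 0.1, the smallest value possible with 3 mice on each diet. Idh2 was thus the 1 of the 9 genes with an unadjusted p under 0.05 for a lower level, against 5.55% of all genes tested. Without control mouse 1 or control mouse 2 the unadjusted p of limma was 0.0504 and 0.0733.

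The NAD-dependent enzyme is built from the catalytic alpha subunit, encoded by Idh3a, and the beta and gamma subunits, encoded by Idh3b and Idh3g. Idh3a lies on the plus strand of chromosome 9 from 54586511 to 54604661, Idh3b on the minus strand of chromosome 2 from 130279309 to 130284547 and Idh3g on the minus strand of the X chromosome from 73778963 to 73786897. Idh3a had 8645, 7898 and 9109 normalized counts on HFD and 8717, 8686 and 8889.7 on control chow. The control mice were nearly alike, and the obese mice lay on both sides of them. The log2 fold change of -0.04 had a 95% interval from -0.28 to 0.20 (limma adjusted p = 0.931), and without HFD mouse 2 it was 0.018. Idh3b ranged from 5447 to 7522 normalized counts over the 6 mice, with means of 6167 ± 723 on HFD and 6812 ± 711 on control chow (SD, n = 3 each), and its groups overlapped. Idh3g ranged from 5575 to 7201, with means of 6204 ± 552 and 6918 ± 359 (SD, n = 3 each). The lowest value of both genes was that of HFD mouse 2. Their log2 fold changes were -0.14 and -0.16 with 95% intervals from -0.43 to 0.14 and from -0.41 to 0.09 (limma adjusted p = 0.715 and 0.629). Idh3b shares 5 exon bases with Nop56 on the other strand, the only exon overlap of the 9 genes with another annotated gene.

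A ratio of transcripts within a mouse does not depend on the size factor of its library. The ratio of Idh2 to the sum of the Idh3 subunits was 0.476, 0.487 and 0.428 on HFD and 0.563, 0.583 and 0.507 on control chow. All obese ratios were below all lean ratios, with a mean difference of -0.25 on the log2 scale. A two-sided exact permutation test gave 0.1, the smallest value it can give here, and 0.3 after adjustment over the 3 ratios tested. The ratios of Idh3b and of Idh3g to Idh3a overlapped between the diets (two-sided exact permutation p = 0.5 and 0.2, adjusted 0.5 and 0.3). Idh2 made up 9.49% to 11.3% of the summed normalized counts of the 9 genes in obese and 11.4% to 12.7% in control mice. It was the 1 gene of the 9 whose share did not overlap between the diets. This comparison was chosen after the values were seen and rests on the Idh2 counts given above. Of all genes tested, 9.17% had all HFD counts below and 8.86% all HFD counts above those of the control mice.

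**Figure D2:**
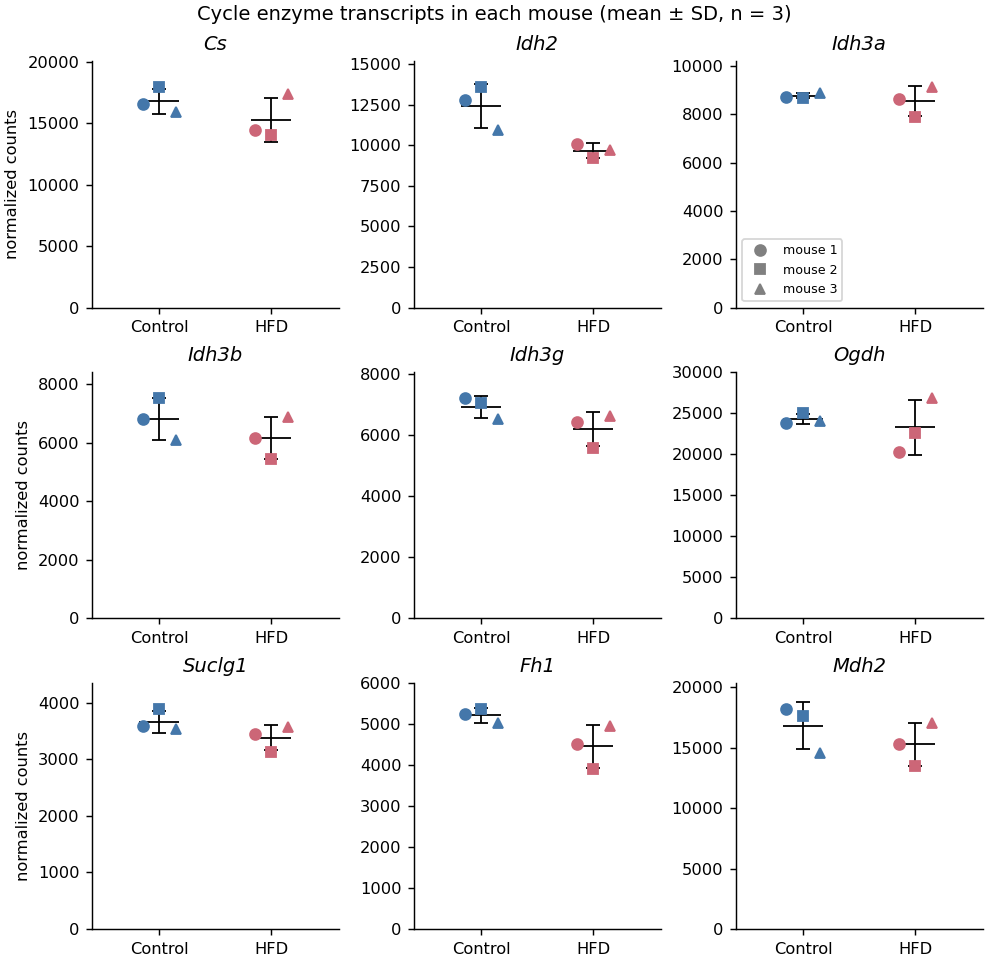
Each panel shows the normalized counts of 1 gene, from 0, in the 3 control (blue) and 3 HFD (red) mice, with the mean and SD as black bars; equal symbols in the 2 diets are different animals. For Idh2 and Fh1 every HFD mouse lies below every control mouse, and for the other 7 genes the groups overlap.

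Of the enzymes around the isocitrate step, Cs encodes citrate synthase, whose activity is widely used as an index of mitochondrial content. It lies on the plus strand of chromosome 10 from 128337832 to 128362479. Cs had 14456, 14039 and 17367 normalized counts on HFD and 16585, 17929 and 15904 on control chow. HFD mice 1 and 2 were below all control mice, whereas HFD mouse 3 was within their range. The means of 15287 ± 1813 and 16806 ± 1031 (SD, n = 3 each) gave a log2 fold change of -0.14 with a 95% interval from -0.43 to 0.14 (limma adjusted p = 0.72). Without HFD mouse 2 or control mouse 2 the log2 fold change was -0.08 and -0.09, and without HFD mouse 3 it was -0.24.

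Ogdh encodes the first component of the 2-oxoglutarate dehydrogenase complex, and Suclg1 the subunit common to the ATP- and GTP-forming succinyl-CoA synthetases. Ogdh lies on the plus strand of chromosome 11 from 6291633 to 6356642, and Suclg1 on the plus strand of chromosome 6 from 73248382 to 73276911. Ogdh had 20295, 22593 and 26787 normalized counts on HFD and 23725, 24936 and 24012 on control chow. HFD mouse 3 had the highest value of all mice and HFD mouse 1 the lowest. The log2 fold change of -0.07 had a 95% interval from -0.37 to 0.24 (limma adjusted p = 0.889), and without HFD mouse 1 it was 0.023. Suclg1 ranged from 3133 to 3891, with means of 3385 ± 225 on HFD and 3667 ± 195 on control chow (SD, n = 3 each), and its groups overlapped (log2 fold change -0.12, limma adjusted p = 0.723).

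The cycle ends with fumarase, which makes malate from fumarate and is encoded by Fh1, and malate dehydrogenase, encoded by Mdh2, which regenerates oxaloacetate and also serves the malate-aspartate shuttle. Fh1 lies on the minus strand of chromosome 1 from 175600374 to 175625635, and Mdh2 on the plus strand of chromosome 5 from 135778480 to 135790398. Fh1 had 4512, 3904 and 4960.2 normalized counts on HFD and 5248, 5377 and 5024 on control chow. All obese values were below all lean values, but HFD mouse 3 and control mouse 3 were close to each other. The means of 4459 ± 530.2 and 5216 ± 179 (SD, n = 3 each) gave a log2 fold change of -0.23 with a standard error of 0.12 and a 95% interval from -0.49 to 0.03. The unadjusted p of limma was 0.0757 and the adjusted p was 0.472, and an exact permutation test (two-sided) gave its smallest value, 0.1. Without HFD mouse 2 the log2 fold change was -0.14. Mdh2 ranged from 13458 to 18219 over the 6 mice, and its lowest value was that of HFD mouse 2 and its highest that of control mouse 1. Its groups overlapped, with means of 15277 ± 1814 and 16828 ± 1946 (SD, n = 3 each), and the log2 fold change was -0.14 (limma adjusted p = 0.748).

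Promoter windows of RefSeq on GRCm38.p6, from 250 bases before to 50 after a start site, matched 8 of the 9 genes, all but Idh3a. They were searched on both strands for AAGGTCA, the core letters of the estrogen-related receptor site, for GCGCATGC, the core of the NRF1 site, and for CCGGAAGT, the site of GABP and other ETS factors, which are known regulators of genes for mitochondrial proteins. These letters occurred in 4.72%, 2.71% and 3.89% of all 32851 windows, and in 5.38%, 3.05% and 4.31% of the 27025 genes with a window. Among the 8 genes, Ogdh alone held matches, in 3 of its 6 windows, 1 for AAGGTCA on the other strand and 2 for the same GCGCATGC, since those windows overlap. Ogdh also had the most windows of the 8 genes. A match of letters is a description and shows no binding. The windows of Idh2 and Fh1, the genes whose diets did not overlap, are printed with 2 windows of Ogdh for comparison, on the strand of the gene, with matched letters in capitals.
Idh2, chr7:80115301-80115600, minus strand: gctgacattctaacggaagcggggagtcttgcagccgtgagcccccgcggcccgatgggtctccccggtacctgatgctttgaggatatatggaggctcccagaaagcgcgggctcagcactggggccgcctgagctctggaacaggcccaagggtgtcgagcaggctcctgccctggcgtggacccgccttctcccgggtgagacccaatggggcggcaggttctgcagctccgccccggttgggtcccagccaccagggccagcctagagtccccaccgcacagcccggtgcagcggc
Fh1, chr1:175625586-175625885, minus strand: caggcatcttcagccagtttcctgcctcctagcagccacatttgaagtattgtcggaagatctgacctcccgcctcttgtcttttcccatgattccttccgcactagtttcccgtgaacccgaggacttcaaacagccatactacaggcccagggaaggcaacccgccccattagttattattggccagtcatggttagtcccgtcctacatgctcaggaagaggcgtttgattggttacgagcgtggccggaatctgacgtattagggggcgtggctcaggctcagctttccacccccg
Ogdh, chr11:6291920-6292219, plus strand: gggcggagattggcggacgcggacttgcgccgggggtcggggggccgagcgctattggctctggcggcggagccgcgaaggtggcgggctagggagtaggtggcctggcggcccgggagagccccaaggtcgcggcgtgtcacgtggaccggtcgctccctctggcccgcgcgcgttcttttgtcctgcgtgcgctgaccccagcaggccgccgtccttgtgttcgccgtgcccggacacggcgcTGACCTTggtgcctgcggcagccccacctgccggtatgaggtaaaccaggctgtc
Ogdh, chr11:6292308-6292607, plus strand: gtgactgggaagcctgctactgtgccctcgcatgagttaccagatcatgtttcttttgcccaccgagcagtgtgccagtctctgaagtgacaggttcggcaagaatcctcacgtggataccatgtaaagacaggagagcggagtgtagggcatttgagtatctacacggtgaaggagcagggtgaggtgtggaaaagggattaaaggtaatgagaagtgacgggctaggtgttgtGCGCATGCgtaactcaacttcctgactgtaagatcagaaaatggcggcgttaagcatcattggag
In the first Ogdh window the match begins 5 bases before the start site, and in the next one 15 bases before it.

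All 9 genes had a negative log2 fold change, as had 49.2% of all genes tested. Their median was -0.14, against 0.005 over all genes tested. The 9 values come from the same 6 libraries and are not independent of one another. Every obese value was below every lean value for 2 of the 9, against 9.17% of all genes, and above every control value for 0 of the 9, against 8.86%. By limma 0 of the 9 passed after adjustment, where 0.262% of all genes were called lower, and 1 did so before it, and edgeR and DESeq2 on the recovered reads also called 0 of the 9. Over all alternatives the adjusted p of Idh2 lay between 0.0851, with DESeq2, and 0.684, without control mouse 2.

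The mice of a diet differed among themselves in a way common to most of the genes. HFD mouse 2 had the lowest of the 6 values for 8 of the 9 genes, and HFD mouse 1 for Ogdh. In HFD mouse 2 all 9 genes, and in HFD mouse 1 7 of them, were below every control mouse, against 2 in HFD mouse 3. Relative to the mean of the 6 mice, the average log2 value of the 9 genes was -0.08, -0.20 and 0.05 in HFD mice 1 to 3 and 0.10, 0.15 and -0.01 in control mice 1 to 3. HFD mouse 3 thus lay above control mouse 3 in this average, while its Idh2 was lower by 0.17 than the mean of the 6 mice. The median log2 fold change of the 9 genes was -0.06 without HFD mouse 2, -0.09 without control mouse 2 and -0.22 without HFD mouse 3.

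**Figure D3:**
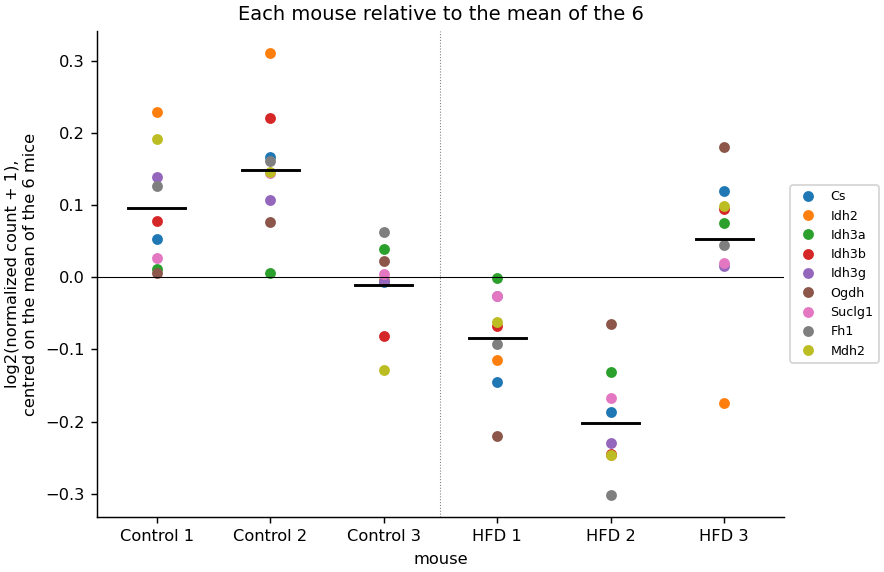
Each coloured point is the log2(normalized count + 1) of 1 gene in 1 mouse, centred on the mean of the 6 mice for that gene, and black bars are the average of the 9 genes. The average is lowest in HFD mouse 2 at -0.20 and highest in control mouse 2 at 0.15, and that of HFD mouse 3, at 0.05, lies among those of the control mice.

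Of the remaining enzymes of the cycle, 8 were examined and also had lower means on HFD. All 8, Dlst, Dld, Suclg2, Sucla2 and the 4 subunits of succinate dehydrogenase, had a negative log2 fold change, with a median of -0.15, and 0 passed the test over all genes. The smallest p was that of Suclg2, the GTP-specific partner of Suclg1, with a log2 fold change of -0.29 (unadjusted p 0.0334, limma adjusted p = 0.357). Its obese values were all below its lean values, and so were those of Sdha. These were 2 of the 8 genes, against 9.17% of all genes tested. Dlst, the second component of the 2-oxoglutarate dehydrogenase complex, had -0.23, whereas the third, Dld, which serves several dehydrogenases, had -0.04. Sucla2 had -0.17, and Sdha, Sdhb, Sdhc and Sdhd had -0.14, -0.16, -0.09 and -0.14.

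**Figure D4:**
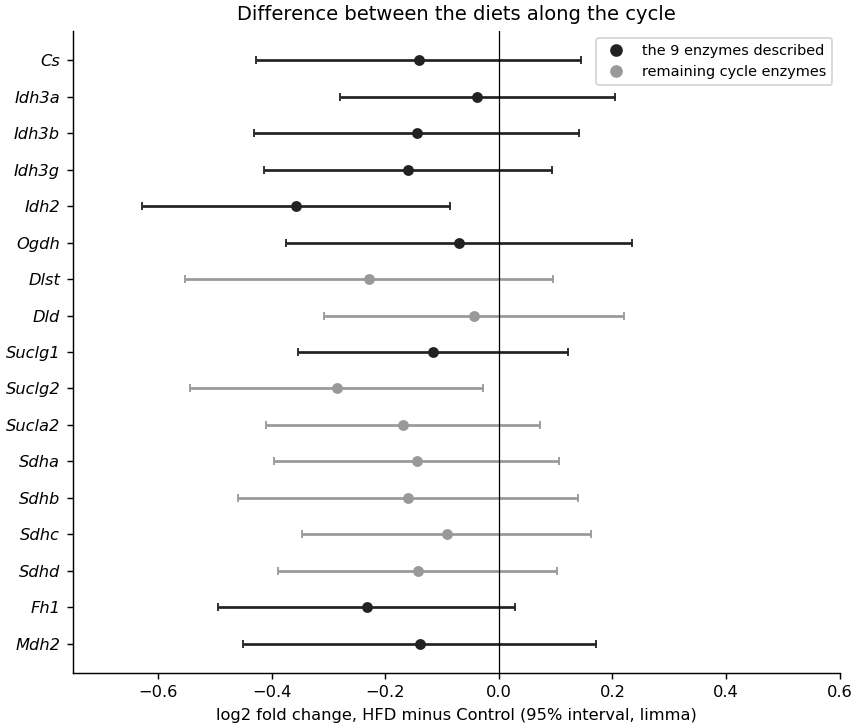
Points are the log2 fold changes of the 9 genes described and 8 further cycle enzymes in HFD against control atria, with 95% intervals from limma, in the order of the cycle. All points lie left of 0, and among the 9 genes described (black) the interval excludes 0 for Idh2 alone, from -0.63 to -0.09.

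Of the genes that surround the cycle, 0 passed the test over all genes in any list. Among 10 genes for assembly and cofactors, 0 had an unadjusted p under 0.05 for a higher and 2 for a lower level. The smallest p was that of Sdhaf4, an assembly factor of succinate dehydrogenase, with a log2 fold change of -0.58 (limma adjusted p = 0.117). Among 6 cytosolic counterparts no gene had an unadjusted p under 0.05, and the smallest was that of the malic enzyme Me1, with 0.18 (limma adjusted p = 0.574). Among 7 carriers of cycle intermediates and pyruvate, 4 had an unadjusted p under 0.05 for a lower and 0 for a higher level, with a median of -0.32. Slc25a10, the dicarboxylate carrier, had -0.48 (limma adjusted p = 0.225). Among 14 regulators, 2 had an unadjusted p under 0.05 in each direction, and the smallest p was that of Sirt5, a deacylase of matrix enzymes, with -0.52 (limma adjusted p = 0.255). The other lower gene was Micu2, with -0.28 (limma adjusted p = 0.32). The higher ones were Ppargc1a and Slc8b1, with 0.39 and 0.36 (limma adjusted p = 0.391 and 0.402). The estrogen-related receptor genes Esrra, Esrrb and Esrrg had 0.10, 0.20 and 0.07. The 12 genes listed for mitochondrial mass, among them the outer membrane channels Vdac1 to Vdac3, had a median of -0.06, with 1 gene at an unadjusted p under 0.05 in each direction. Timm23, a channel of the inner membrane, had the smallest p, with -0.63 (limma adjusted p = 0.336). The shares of all genes tested at that p were 6.66% for a higher and 5.55% for a lower level.

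Levels of cell type markers are given beside these values. The general myocyte markers Myh6, Actc1, Tnnt2 and Tnni3 all had a negative log2 fold change, with a median of -0.28, and 0 of 4 had an adjusted p under 0.05. Tnnt2 and Tnni3 had log2 fold changes of -0.44 and -0.37 (limma adjusted p = 0.344 and 0.393). For these 2 of the 4 every HFD value was below every control value, against 9.17% of all genes tested. Myh6 and Actc1 overlapped, and Actc1 had 201539 normalized counts in HFD mouse 3, against 48472 and 65333 in HFD mice 1 and 2. The summed level of the 4 markers was 444498 to 812509 normalized counts in obese and 642949 to 707075 in control mice. Of the 5 atrial myocyte markers 4 had a negative log2 fold change, with a median of -0.40. The other one, Bmp10, had 0.62, and its groups overlapped. Sln was the 1 of the 5 without overlap (log2 fold change -0.32, limma adjusted p = 0.352). It had 23714, 19693 and 19799 normalized counts on HFD, all below the 26121, 27600 and 25151 on control chow. Myl7, the atrial myosin light chain, had 31186, 27168 and 58765 normalized counts on HFD and 60190.2, 56346 and 58183 on control chow, so that HFD mouse 3 lay among the control mice and HFD mice 1 and 2 lay below them. Of 3 brown adipocyte markers tested, Ucp1 and Cidea rose with an adjusted p of 0.0446 and 0.031 by limma, and the summed level of the list was 616 to 1283 in obese and 187 to 330.3 in control mice. The white adipocyte list summed to 5879 to 10687 normalized counts on HFD and 3232 to 5563 on control chow, with 0 of 6 genes called. Most of this sum was Fabp4, with 5075 to 8820.1 against 2949 to 4228, and the diets overlapped for the other 5 genes, of which Lep had a log2 fold change of -1.41. The endothelial list summed to 12731 to 14105 on HFD and 10518 to 11163 on control chow, with 0 of 4 genes called. Pecam1 had 5339.5 to 6259 against 3842 to 4106 (limma adjusted p = 0.0504), Tie1 had a log2 fold change of 0.16 with no overlap, and Cdh5 and Kdr, with 0.04 and 0.14, overlapped. The lymphocyte markers summed to at most 59.1 normalized counts in any mouse. The fibroblast, macrophage, mesothelium and erythroid lists had median log2 fold changes of -0.14, 0.30, -0.16 and 0.07, with 0 genes called. In these lists the diets did not overlap for the fibroblast gene Lum, with -0.33, and the macrophage gene Cd68, with 0.37 (limma adjusted p = 0.291 and 0.465). Of all genes tested, 9.17% had all HFD values below and 8.86% above those of the control mice. The 4 ventricular myocyte markers all had a negative log2 fold change, with a median of -0.40 and 0 called. Control mouse 2 had 5513 normalized counts of Myl3, against 1596 to 2875 in the other mice. Its Myh7, with 3677, was not the highest. Control mouse 2 also had the highest value for 5 of the enzymes. Without it their median log2 fold change was -0.09, against -0.14 with all mice. In atrial tissue, a smaller part of myocytes and less of these transcripts per myocyte cannot be told apart. The part of the markers, or of ventricular tissue in control mouse 2, in the enzyme values was not tested.

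The genes whose values over the 6 mice were nearest to the average of the 9 enzymes were sought among 10821 others with at least 100 normalized counts. Nearness was the root mean square difference of the centred log2 values over the 6 mice. The 5 nearest, with differences from 0.0206 to 0.0263, were Otub1, Atp5a1, Uckl1, Uqcrc2 and Immt. Atp5a1 encodes the alpha subunit of the ATP synthase, Uqcrc2 a core protein of respiratory complex III and Immt the mitofilin of the inner membrane. Otub1, the nearest of all with 0.0206, and Uckl1, with 0.0236, encode none of these proteins. Among the 9 enzymes this difference ran from 0.0391 for Idh3g to 0.128 for Idh2, which departed most from the average of the 9, followed by Ogdh with 0.106.

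**Figure D5:**
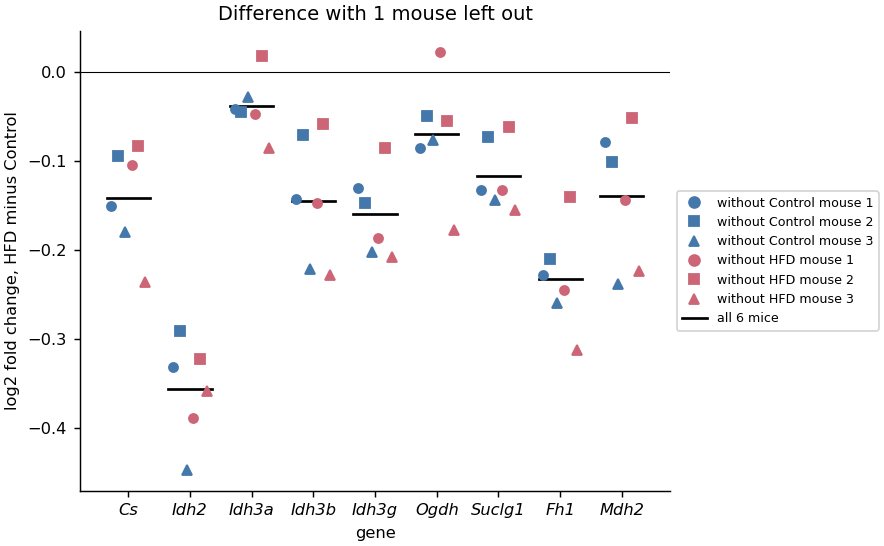
Symbols give, per gene, the log2 fold change with 1 of the 6 mice left out (blue, control; red, HFD), and black bars the value with all 6 mice. Idh2 stays between -0.45 and -0.29, while Idh3a reaches 0.018 without HFD mouse 2 and Ogdh 0.023 without HFD mouse 1.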

How the data were processed

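Atrial RNA of 3 mice per diet was sequenced by the authors as single-end reads of 50 bp from directional libraries. Alignment to GRCm38 was by STAR; reads with a unique position were then quantified per gene by Salmon and scaled by DESeq2. The deposited signal is the read count of each gene divided by 1 size factor per sample, called normalized counts. The authors also deposited log2 fold changes with standard errors, p-values and scores of their own comparison, which were not used. Genes similar to another gene can lose reads that map to both, and the use of strand in counting is not given in the sources used here.

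The members and gene lists were chosen with earlier results of these data known. Groups were taken from the titles. The 15275 genes (of 24679 with any read) that averaged 10 or more normalized counts entered limma 3.58.1, run in R 4.3.3, on log2(normalized count + 1), with a variance trend, no covariate and Benjamini-Hochberg adjustment at 0.05. The smallest positive value of a library equals 1 read, which gave whole reads (within 0.01) for 100% of the values. On these reads edgeR 4.0.16 and DESeq2 1.42.0 were run as alternatives. Permutation tests were exact and two-sided. Gene names came from GENCODE M21 (97.8% of 43432 genes). Lengths are of the longest protein-coding transcript there. Standard errors, intervals and p-values of limma rest on the spread between these mice together with a variance trend drawn from all genes tested. The named genes were the 9 enzymes, the remaining cycle enzymes, in every other list the gene with the smallest p, and the 5 genes nearest to the average of the 9. A further cycle gene is not reported here and was left out of its list and of the nearest genes, but not of the fit over all genes. Other genes of the lists that are named, and the comparison of shares, were chosen after their values were seen. The limma, edgeR and DESeq2 fits were run on simulated data with known changes larger than those of the 9 enzymes. Such data do not show how changes as small as theirs are recovered. The permutation tests, ratios, promoter search and nearest genes were not part of this simulation.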

Additional observations from a re-analysis of the deposited data

How the results depend on the processing

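None of the 9 enzymes had an adjusted p under 0.05 in any of the 16 refits, and 142 of their 144 refitted log2 fold changes were negative. The 2 exceptions were Ogdh without HFD mouse 1 and Idh3a without HFD mouse 2, with 0.023 and 0.018. Refits that changed only the filter on low values, the variance trend or the replicate block returned the log2 fold changes of the main fit. Idh2, for example, had -0.36 in each of them. The signs of these refits were therefore fixed beforehand and add nothing to the count. All other refits used the same libraries and are not independent of one another. With 1 mouse left out Ogdh ranged from -0.178 to 0.023 and Idh3a from -0.085 to 0.018. The number of the 9 with an unadjusted p under 0.05, 1 in limma, was 2 with quantile normalization and 0 to 2 with 1 mouse left out. The median log2 fold change of the 9 lay between -0.22 and -0.06 with 1 mouse left out. Of the 114 genes called over the table, 69 also had a log2 fold change beyond 1. The number called was 470 with DESeq2, and 0 by limma without a variance trend (1717 at an unadjusted p under 0.05, and 87 called by edgeR with TMM). It was 14 to 342 with 1 mouse left out, lowest without control mouse 2 and highest without HFD mouse 3. The genes around the cycle, 0 called by limma, gave 2 with DESeq2 (Glul and Gpt) and 0 to 1 with 1 mouse left out. The cause of these differences was not tested.

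With the replicate number as a block, 157 genes were called over the table, 2 of them around the cycle (Glul and Pck1), and 0 of the 9 enzymes. The numbers name different animals, and the correlations of the deviations of same-numbered mice were 0.116, -0.027 and -0.0039 over 15275 genes. Whether same-numbered mice shared anything beyond the number is not given by the labels and was not tested. The best match of HFD mouse 2 was control mouse 3, with 0.16. Because 1 left-out mouse leaves 2 in a diet, single mice weigh heavily on values of this size. Each enzyme had at least 3072 reads per library.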

Other observations

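Among 15 genes for the entry and exit of cycle intermediates, 3 had an unadjusted p under 0.05 for a higher and 3 for a lower level, and 0 passed the test over all genes by limma. Of all genes tested, 6.66% had such a p for a higher and 5.55% for a lower level. All HFD values were above all control values for 2 of the 15 genes and below them for 4, against 8.86% and 9.17% of all genes. Gpt, the alanine aminotransferase that links pyruvate to 2-oxoglutarate, had the smallest p of this list. On HFD it had 99.5, 87.7 and 114 normalized counts, all below the 187, 214 and 149 on control chow (log2 fold change -0.85, adjusted p = 0.0898 from limma). Glul, glutamine synthetase, had 8450.4, 6992 and 4400.2 on HFD, all above the 4163, 4223 and 3069 on control chow (log2 fold change 0.76, adjusted p = 0.166 from limma). Pck1, the cytosolic phosphoenolpyruvate carboxykinase, had 1654, 375 and 745 on HFD and 397, 83.5 and 56.8 on control chow, which overlapped (log2 fold change 2.63, adjusted p = 0.11 from limma). Mouse 1 of each diet, where Pck1 was highest, also had the highest Adipoq of its diet, 533 on HFD and 334 on control chow. The white adipocyte markers Plin1, Cidec, Retn and Fabp4 were likewise highest there, but Lep on HFD was highest in mouse 3. The part of adipose tissue in the Pck1 values was not tested. Glul and Pck1 are named because they were called under other settings.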
